A study of Arabidopsis thaliana with 90 samples.

Results

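Of 18457 regions marked by dimethylated lysine 4 of histone H3 (H3K4me2) on the 5 nuclear chromosomes of Arabidopsis thaliana, 2828, or 15.3%, overlapped no region of trimethylated lysine 4 (H3K4me3) by even 1 bp. These 2828 regions were chosen from the 2 deposited region lists of the wild type, and the other 15629 H3K4me2 regions, which did overlap H3K4me3, served for comparison. The lists held 15934 H3K4me3 regions. Since both marks chose the regions, their own values below are descriptions and carry no test.

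Methyl groups are added to lysine 4 of histone H3 step by step, and COMPASS-like complexes, of which WDR5A is a subunit, are among the enzymes that do so. In plants H3K4me3 and H3K4me2 lie near the start of transcribed genes, H3K4me1 lies in the gene body, and the histone variant H2A.Z lies at gene starts and also over the bodies of many genes with low or inducible transcription. The DREAM complex, the subject of the study, is a repressor of cell cycle genes that contains E2F transcription factors.

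All values came from chromatin immunoprecipitation sequencing of whole 9-day-old seedlings of the Col-0 wild type, grown in continuous white light. Each of 10 features had 3 libraries: H3K4me2, H3K4me3, H2A.Z, H3K4me1, total RNA polymerase II (Pol II), Pol II phosphorylated on serine 5 (Ser5P) or serine 2 (Ser2P) of its tail, tagged WDR5A (WDR5A-HA), BTE1, a protein studied for its part in DREAM, and the transcription factor E2FA. For WDR5A-HA the antibody label names anti-HA beads and the genotype label is Col-0, and the labels used here give no promoter for the tagged protein. Mutant, H3K27me3, input and control libraries of the series were not analysed here. Seedlings hold many cell types, so fewer cells with a mark and less of the mark per cell cannot be told apart.

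The peak lists hold no read totals, so depth was unknown. A feature was called on a region when a peak of it overlapped the region by at least 1 bp in all 3 libraries, and its fold is the caller's enrichment of that peak over background. Shares and median folds were compared between the groups of regions within each feature, 3 libraries against 3, by a two-sided exact permutation test. That test cannot give a p below 0.1, so none of the 16 comparisons, on 8 features, could pass 0.05. Every p of 0.1 below is this smallest value, and for the shares of regions with a peak and the median folds, which make up the 16 comparisons, it became 0.16 after Benjamini-Hochberg adjustment. The labels number the libraries and do not say whether they came from separate cultures, so the p-values measure only the spread between these libraries. The same library gave both values of each comparison, and a peak that crossed regions of both groups entered both median folds.

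The regions without H3K4me3 were narrower than the others. Their median width was 583 bp, with an interquartile range of 451 to 771 bp, against 930 bp for regions with H3K4me3. The gap to the nearest H3K4me3 region had a median of 1894 bp and ran from 5 to 75752 bp. It was under 500 bp at 475 regions (16.8%), 500 to under 2000 bp at 989 (35.0%), 2000 to under 10000 bp at 1286 (45.5%) and 10000 bp or more at 78 (2.76%). The share of H3K4me2 regions that lacked H3K4me3 was 13.8% to 16.1% on the 5 chromosomes.

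H3K4me2 itself was weaker and less often found in every library where H3K4me3 was missing. A peak of H3K4me2 was present in all 3 libraries at 2093 regions without H3K4me3 (74.0%) and at 14536 regions with it (93.0%), and the rest had a peak in 2 libraries. The median H3K4me2 fold was 2.90, 2.65 and 2.73 in the 3 libraries for regions without H3K4me3, against 3.03, 2.80 and 2.91 for regions with it. In each library the regions without H3K4me3 had the lower median, and the ranges over the 3 libraries overlapped between the groups. Weak H3K4me3 peaks of single libraries crossed 323 of the regions without H3K4me3, in 1 library at 322 and in 2 libraries at 1. Their median folds were 2.36, 2.24 and 2.19, against 7.00, 6.56 and 7.13 for H3K4me3 peaks on the other regions.

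At the edge of the rule, the 3 regions nearest to an H3K4me3 region were those at AT4G19050, AT3G08555 and AT4G26960, with gaps of 5, 8 and 13 bp. The 3 regions just on the other side were those at PP2A-3, SSP4 and AT1G76380, which overlapped H3K4me3 by 6, 9 and 14 bp. AT4G19050, AT3G08555 and AT4G26960 had H2A.Z peaks in all 3 libraries and no H3K4me1 peak in any. PP2A-3, SSP4 and AT1G76380 had H3K4me1 in all 3 libraries and H2A.Z in none. Among all regions with H3K4me3, H2A.Z was called at 92.7% and H3K4me1 at 50.5%. Among all those without H3K4me3, the shares were 90.1% and 4.03%. In H2A.Z, PP2A-3, SSP4 and AT1G76380 thus differed from most regions with H3K4me3.

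The regions without H3K4me3 lay near gene ends more often than the others. The gene that a region overlapped most is called its main gene here. The region's midpoint lay inside the main gene and under 500 bp from one of its ends at 1767 regions without H3K4me3 (62.5%), against 25.2% of regions with H3K4me3. It lay at least 500 bp from both ends at 944 (33.4%), against 73.8%. The gene table gives no strand, so gene starts and gene ends were not told apart. A short gene leaves little or no room at least 500 bp from both ends, and the main genes were shorter in this group, as given below. The parts of region width and gene length in this difference were not tested. No gene was overlapped at 60 regions (2.12%), against 0.269% of regions with H3K4me3.

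The main gene was protein-coding at 2576 regions without H3K4me3 (91.1%), against 97.1% of regions with H3K4me3. Pseudogenes were the main gene at 90 regions (3.18%, against 0.768%), long non-coding RNA genes at 63 (2.23%, against 1.12%) and genes of the class misc_RNA at 29 (1.03%, against 0.230%). The 2576 regions fell on 2443 protein-coding genes, 8.91% of the 27432 in the table, and 130 of these genes held 2 or more regions. Their main genes had a median length of 2174 bp, against 2563 bp for the main genes of regions with H3K4me3. At 415 regions (14.7%) an H3K4me3 region lay elsewhere on the same main gene. At 2353 (83.2%) the main gene held no listed H3K4me3 region. Here and below, a gene without H3K4me3 is one that no listed H3K4me3 region overlapped. Weak H3K4me3 peaks of single libraries did not count.

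H2A.Z lay on nearly all regions without H3K4me3. It had a peak at 93.0%, 92.1% and 92.5% of them in the 3 libraries, against 94.6%, 94.1% and 94.1% of regions with H3K4me3. The libraries did not overlap between the groups, with means of 92.5% ± 0.429 and 94.3% ± 0.303 (SD, n = 3 libraries each; exact permutation p = 0.1), but the difference of less than 2 percentage points turned round in 8 of 10 other settings of regions, peaks or width. It kept its sign and grew to -27.2, from shares of 45.7% and 72.9%, when only the stronger 50% of H2A.Z peaks by score counted. With width made equal, the means were 92.5% without H3K4me3 and 91.5% with it. H2A.Z was called at 2549 regions without H3K4me3 (90.1%), close to the 92.3% of all H3K4me2 regions, a share near that background.

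H2A.Z covered a larger share of the bases of regions without H3K4me3, and did so with weaker peaks. It covered 80.3% ± 0.789 of their bases, against 52.7% ± 0.312 of the bases of regions with H3K4me3 (SD, n = 3 libraries each). This comparison (exact permutation p = 0.1) was outside the 16 and not adjusted. Median region width was 583 bp without H3K4me3 and 930 bp with it. The part of width in these shares of bases was not tested. The median fold of H2A.Z peaks was 3.36, 3.31 and 3.27 on regions without H3K4me3, against 4.38, 4.29 and 4.33 on regions with it (exact permutation p = 0.1). All 3 libraries were lower without H3K4me3, with no overlap between the groups. At the centre of the region an H2A.Z peak was present in 89.4% ± 0.184 of regions without H3K4me3 and in 58.3% ± 0.311 of regions with it.

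H2A.Z peaks also covered a larger part of the genes. Over the 2056 protein-coding main genes that carried no H3K4me3, the median share of the gene covered by H2A.Z peaks was 40.2%, 38.9% and 38.7% in the 3 libraries. Over the other 14879 genes, the protein-coding main genes of regions with H3K4me3, it was 23.3%, 22.9% and 23.0%. At least 50% of the gene was covered in 37.4% ± 0.974 of the genes without H3K4me3 and in 12.5% ± 0.214 of the others (SD, n = 3 libraries each). Gene length differs between the groups, and its part in these shares was not tested.

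**Figure D1:**
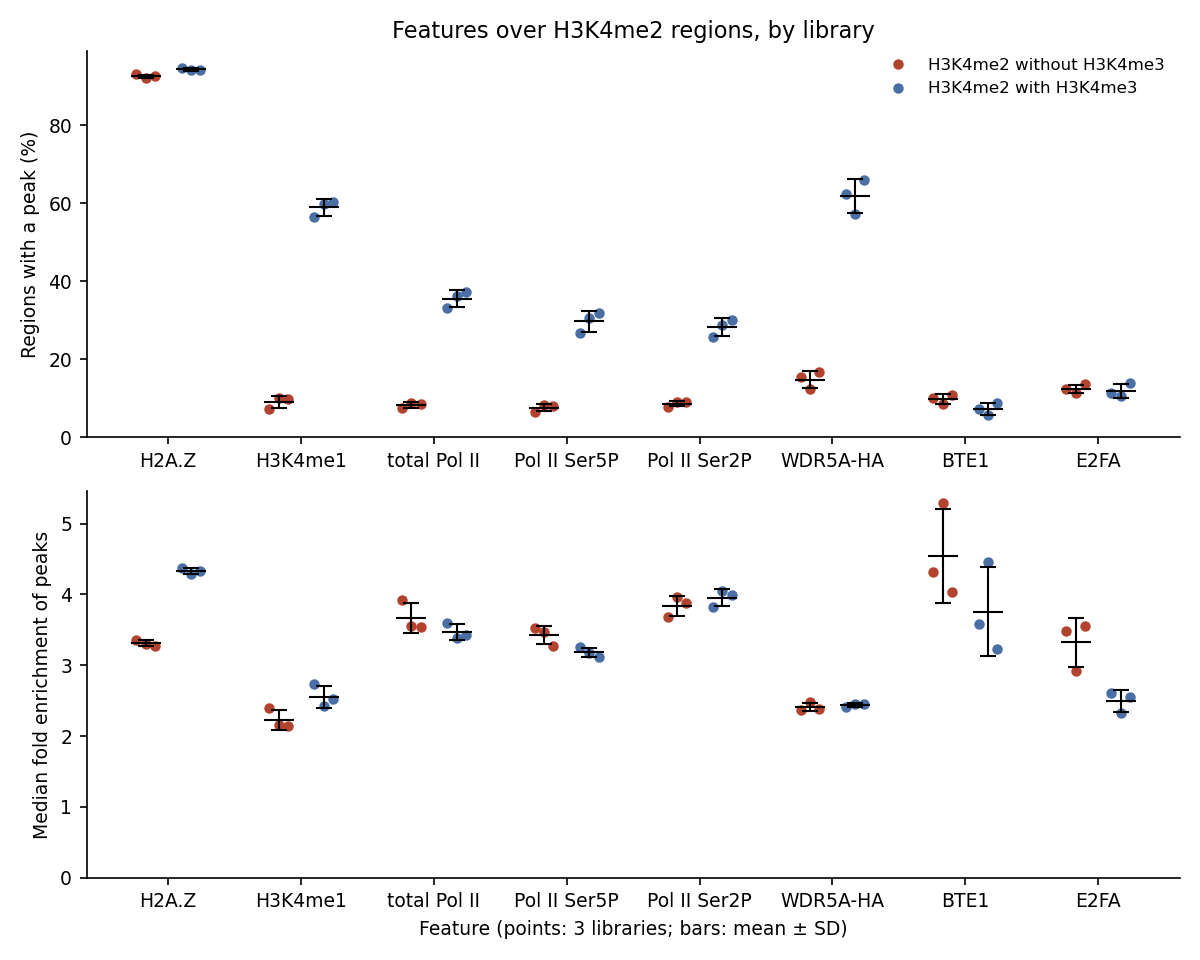
Percent of regions with a peak (upper panel) and median fold enrichment of the peaks (lower panel) for 8 features, with points for the 3 libraries and bars for mean ± SD; regions without H3K4me3 are red and stand left of regions with H3K4me3 in blue. H3K4me1, the 3 forms of Pol II and WDR5A-HA are far less frequent without H3K4me3, H2A.Z lies above 90% in both, and BTE1 and E2FA overlap between the groups.

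**Figure D2:**
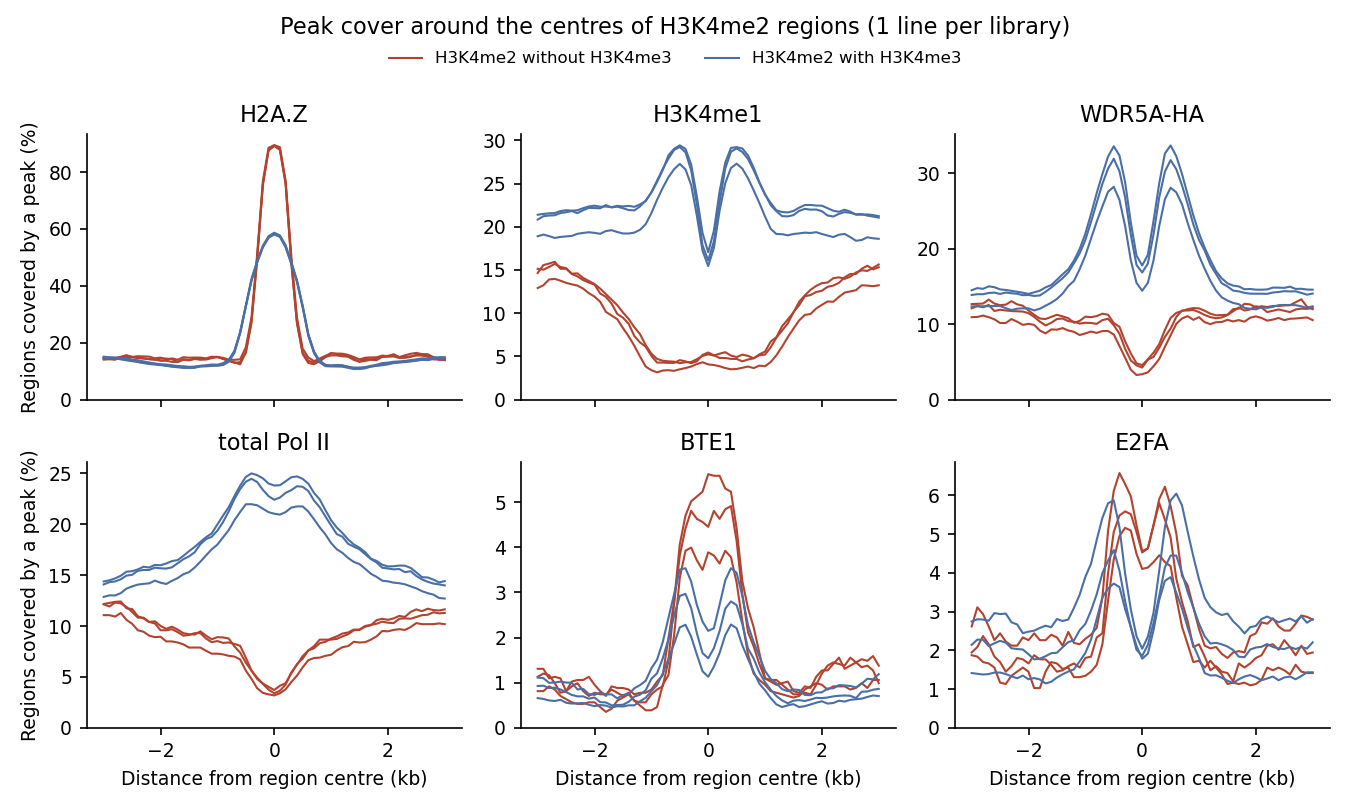
Percent of regions covered by a peak at each distance from the region centre, up to 3 kb to either side, with 1 line per library; red is H3K4me2 without H3K4me3 and blue is H3K4me2 with H3K4me3. H2A.Z reaches 89.4% at the centre of regions without H3K4me3 and 58.3% at the centre of those with it, while total Pol II dips at the centre without H3K4me3 and WDR5A-HA dips at the centre in both groups.

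The strongest H2A.Z among the regions without H3K4me3 lay at AT1G30760, AT1G32049 and AGP5. The H2A.Z folds were 7.78, 8.54 and 8.06 in the 3 libraries at AT1G30760, 8.01, 9.00 and 7.20 at the transcribed pseudogene AT1G32049, and 8.23, 7.71 and 7.65 at AGP5, an arabinogalactan protein gene of the cell wall. None of these 3 regions had a peak of H3K4me1, WDR5A-HA or any form of Pol II in any library.

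H3K4me1, the mark of gene bodies, was scarce. It had a peak at 7.32%, 10.1% and 9.83% of regions without H3K4me3, against 56.5%, 59.9% and 60.4% of regions with H3K4me3, a difference of -49.8 percentage points with no overlap between the libraries (exact permutation p = 0.1). It was called at 114 regions without H3K4me3 (4.03%), against 43.3% of all H3K4me2 regions. Standardised over the 4 width classes the mean shares were 9.08% and 40.5%, and with a peak over at least 50% of the region they were 4.35% and 15.8%. Its peaks were also weaker, with a mean fold of 2.23 ± 0.142 on regions without H3K4me3, against 2.56 ± 0.156 on regions with it (SD, n = 3 libraries each; exact permutation p = 0.1).

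Where H3K4me1 was present, it lay mostly on genes that carried H3K4me3 elsewhere. Of the 114 called regions, 90 had H3K4me3 elsewhere on the main gene. This split uses the list that chose the regions and is a description. The H3K4me1 fold was 3.88, 3.67 and 3.55 in the 3 libraries at AT3G08530, 4.05, 2.96 and 3.93 at AT3G06670, and 3.91, 2.88 and 3.91 at F2KP, which encodes an enzyme that makes and breaks fructose 2,6-bisphosphate. These 3 highest regions lay at least 500 bp inside a gene with H3K4me3, had H3K4me2 in libraries 1 and 3 only, and had no H2A.Z peak.

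Pol II was present on few of the regions without H3K4me3. Total Pol II had a peak at 7.46%, 8.77% and 8.49% of them, against 33.0%, 36.2% and 37.3% of regions with H3K4me3. Ser5P, the form found at the start of transcription, averaged 7.59% and 29.7%, and Ser2P, the form of productive elongation, averaged 8.60% ± 0.745 and 28.2% ± 2.31 (SD, n = 3 libraries each). For all 3 forms the libraries did not overlap between the groups (exact permutation p = 0.1 each). With the peak summit inside the region the total Pol II shares were 1.61% and 14.4%. The calls on regions without H3K4me3 numbered 176 for total Pol II (6.22%, against 26.1% of all H3K4me2 regions), 144 for Ser5P (5.09%, against 20.1%) and 190 for Ser2P (6.72%, against 20.7%).

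Where Pol II was present, the median folds of its peaks differed little between the groups, but the groups shared peaks. A peak that crossed regions of both groups counted in both medians. Such peaks were 72 of 210, 88 of 253 and 85 of 246 total Pol II peaks on regions without H3K4me3. The Ser5P medians were higher without H3K4me3 in each library and did not overlap between the groups. The mean of the median folds for total Pol II was 3.67 ± 0.214 on regions without H3K4me3 and 3.47 ± 0.109 on regions with it (exact permutation p = 0.3). For Ser5P it was 3.43 ± 0.131 and 3.18 ± 0.0675 (exact permutation p = 0.1), and for Ser2P 3.84 ± 0.144 and 3.96 ± 0.115 (exact permutation p = 0.4; SD, n = 3 libraries each). The direction of the total Pol II and Ser5P fold differences turned round when only peaks with their summit inside the region were used, to -0.156 and -0.0527.

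TCH2, a touch-inducible calmodulin-like gene, had the highest mean Pol II folds of the regions without H3K4me3. A fold is that of a peak crossing the region, and whether its summit lay inside was not examined for single regions. Its region on chromosome 5, chr5:14997457-14998345 in TAIR10, had total Pol II folds of 15.8, 14.4 and 17.5, Ser5P folds of 10.3, 9.68 and 10.9 and a mean Ser2P fold of 12.6. It lay 178 bp from the nearest H3K4me3 region, on a gene that held H3K4me3, and also overlapped the gene AT5G37760. An H3K4me3 peak of 2.13-fold crossed it in library 3 only.

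AT4G40020 had total Pol II folds of 12.1, 11.6 and 14.4, and AT1G01310 had total Pol II folds of 9.86, 9.82 and 10.1. Neither gene held a listed H3K4me3 region, and the gaps to the nearest one were 343 and 1557 bp. A region without a gene at chr2:1821876-1822532 had total Pol II folds of 18.4, 13.8 and 10.4, Ser2P folds of 14.4, 10.9 and 7.05 and a gap of 390 bp to H3K4me3. Each of these regions also had H2A.Z and WDR5A-HA peaks in all 3 libraries.

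The general transcription factor TBP, known from 1 list without replicates, lay on 423 regions without H3K4me3 (15.0%), against 37.4% of regions with H3K4me3 and 34% of all H3K4me2 regions. Some form of Pol II was called at 178 of the 423 regions with TBP (42.1%) and at 77 of the 2405 regions without TBP (3.20%). Among regions with H3K4me3 these shares were 65.2% and 14.7%. In all, some form of Pol II was called at 255 regions without H3K4me3 (9.02%), against 29.8% of all H3K4me2 regions.

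WDR5A-HA had a peak at 15.5%, 12.3% and 16.6% of the regions without H3K4me3, against 62.4%, 57.3% and 65.9% of regions with H3K4me3 (exact permutation p = 0.1). The groups did not overlap, and standardised over the 4 width classes the means were 14.8% and 58.0%. With a peak over at least 50% of the region they were 3.80% and 14.9%. WDR5A-HA was called at 257 regions without H3K4me3 (9.09%), against 44.6% of all H3K4me2 regions. The median fold of its peaks was 2.41 ± 0.0616 without H3K4me3 and 2.44 ± 0.0270 with it (SD, n = 3 libraries each; exact permutation p = 0.6). That difference of -0.02 became -0.12 with no H3K4me3 region within 500 bp and -0.14 with the peak summit inside the region (exact permutation p = 0.1 each, not adjusted). Of the 255 regions without H3K4me3 that had Pol II, 116 had WDR5A-HA (45.5%), against 78.2% of the regions with H3K4me3 that had Pol II.

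The strongest WDR5A-HA without H3K4me3 lay on CBF1, a transcription factor gene of the cold response. Its region at chr4:13021892-13022690 had WDR5A-HA folds of 7.57, 7.01 and 7.42, H2A.Z folds of 2.65, 2.43 and 2.93 and total Pol II folds of 2.12, 2.98 and 2.81. Its neighbour DREB1A, another gene of the same cold-response group, had WDR5A-HA folds of 5.51, 6.37 and 6.54, Ser5P folds of 3.48, 3.58 and 6.64 and some of the highest H3K4me2 folds, 5.07, 7.35 and 7.31. Neither region had an H3K4me3 peak in any library, and the gaps to H3K4me3 were 1781 bp at CBF1 and 2473 bp at DREB1A.

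RLM3, a gene of resistance to a fungal pathogen, had WDR5A-HA folds of 7.78, 6.94 and 6.55 and total Pol II folds of 9.46, 15.3 and 9.88. AT3G57460 had WDR5A-HA folds of 5.89, 6.31 and 6.33 and no H2A.Z peak. Both lay within 500 bp of an H3K4me3 region, with gaps of 450 and 336 bp.

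Most regions without H3K4me3 carried H2A.Z as the single one of these features. When H2A.Z, H3K4me1, any form of Pol II, WDR5A-HA, BTE1 and E2FA were read together, 1990 regions without H3K4me3 (70.4%) had H2A.Z called and none of the others, against 15.8% of regions with H3K4me3. A further 159 (5.62%, against 0.601%) had none of the features called. The next most frequent set was H2A.Z with BTE1 and E2FA, at 124 regions (4.38%, against 0.998%). H2A.Z with WDR5A-HA followed at 114 (4.03%, against 9.64%), and H2A.Z with Pol II and WDR5A-HA at 77 (2.72%, against 14.8%).

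BTE1 had a peak at 10.1%, 8.38% and 10.9% of regions without H3K4me3, against 7.26%, 5.78% and 8.67% of regions with H3K4me3 (exact permutation p = 0.2). It was higher without H3K4me3 in each of the 3 libraries, but the ranges of the groups overlapped. Standardised over the 4 width classes the means were 9.78% ± 1.28 and 5.12% ± 1.27 (SD, n = 3 libraries each; exact permutation p = 0.1, not adjusted). BTE1 was called at 201 regions without H3K4me3 (7.11%), against 4.76% of all H3K4me2 regions. Its median fold was 4.32, 5.29 and 4.03 without H3K4me3, against 3.59, 4.45 and 3.23 with it (exact permutation p = 0.3).

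E2FA had a peak at 12.3%, 11.4% and 13.5% of regions without H3K4me3, against 11.2%, 10.4% and 13.8% of regions with H3K4me3 (exact permutation p = 0.7), and the ranges of the groups overlapped. Standardised over the 4 width classes the means were 12.4% ± 1.06 and 8.72% ± 1.68 (SD, n = 3 libraries each; exact permutation p = 0.1, not adjusted). It was called at 226 regions without H3K4me3 (7.99%), against 5.95% of all H3K4me2 regions. Its median fold was higher on regions without H3K4me3 and did not overlap between the groups, at 3.49, 2.93 and 3.56, against 2.61, 2.32 and 2.55 (exact permutation p = 0.1). The E2FA peaks were deposited at a more lenient threshold than those of the other features.

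BTE1 and E2FA met on the same regions. Of the 201 regions without H3K4me3 that had BTE1, 158 also had E2FA, which is 78.6% of the BTE1 regions and 69.9% of the E2FA regions. With H3K4me3 the shares were 69.5% and 54.0%. The median BTE1 fold was 6.48 on BTE1 regions without H3K4me3 that also had E2FA and 3.90 on those that did not, and with H3K4me3 it was 5.61 and 3.80.

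Some form of Pol II was called at 20 of the 201 BTE1 regions without H3K4me3 (9.95%), against 23.6% of the BTE1 regions with H3K4me3, and WDR5A-HA at 26 (12.9%), against 44.4%. Among all regions without H3K4me3 these shares were 9.02% and 9.09%, so the BTE1 regions were not lower than the rest of them. H2A.Z was called at 199 (99.0%), against 98.5%. At 180 of the 201 regions (89.6%) the main gene held no listed H3K4me3 region, against 83.2% of all regions without H3K4me3. Of the 1500 regions in the deposited BTE1 list, 280 (18.7%) overlapped an H3K4me2 region without H3K4me3 and 1030 (68.7%) one with H3K4me3.

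The highest BTE1 folds without H3K4me3 lay on AT3G23740, RPA70B and SDG4. BTE1 folds were 21.2, 25.1 and 22.4 in the 3 libraries at AT3G23740, and 26.1, 23.1 and 19.3 at RPA70B, a large subunit of the single-stranded DNA binding protein RPA. SDG4, a SET-domain gene, had 22.0, 20.6 and 20.4. The highest E2FA folds lay on ATIM, a homologue of the replication fork gene TIMELESS, with 25.3, 15.4 and 33.0, on the replicative helicase gene MCM6 with 21.3, 21.7 and 25.5, and on AT1G20720 with 21.9, 16.0 and 25.7.

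The RPA70B region at chr5:2571951-2572528 had Ser2P folds of 2.67, 2.24 and 2.56, a total Pol II peak of 2.70-fold in library 1 only, and H2A.Z folds of 5.21, 4.77 and 5.02. MCM6 at chr5:18009866-18010726 had BTE1 folds of 17.5, 26.8 and 18.5, H2A.Z folds of 7.08, 7.53 and 7.18 and no Pol II or WDR5A-HA peak in any library. An H3K4me3 peak of 2.76-fold was present at MCM6 in library 1 only.

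Below the first 3, the order of BTE1 folds was followed to 20 regions after the values were seen. Mean BTE1 folds were 20.2 ± 5.43 at BARD1 and 17.5 ± 1.87 at BRCA1, which act in DNA repair, and 14.6 ± 2.58 at TOPII, a topoisomerase gene (SD, n = 3). They were 13.7 ± 0.947 at POLA3, a primase subunit gene, 15.7 ± 4.15 at Haspin, a mitotic kinase gene, and 12.9 ± 3.12 at SYN3, a cohesin subunit gene.

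HTA11, which encodes an H2A.Z histone, had a mean BTE1 fold of 17.4 ± 2.06 and an H2A.Z fold of 4.44, and MET1, the maintenance DNA methyltransferase, had a BTE1 fold of 17.1 ± 4.40 and an H2A.Z fold of 6.44 (SD, n = 3). E2FA and H2A.Z peaks were present in all 3 libraries at each of the 20 regions. Among all 201 BTE1 regions without H3K4me3 these shares were 78.6% and 99.0%. Total Pol II was called at 0 of the 20, against 6.22% of all regions without H3K4me3, and Ser2P was called at RPA70B. The H2A.Z and total Pol II counts were near those shares.

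**Figure D3:**
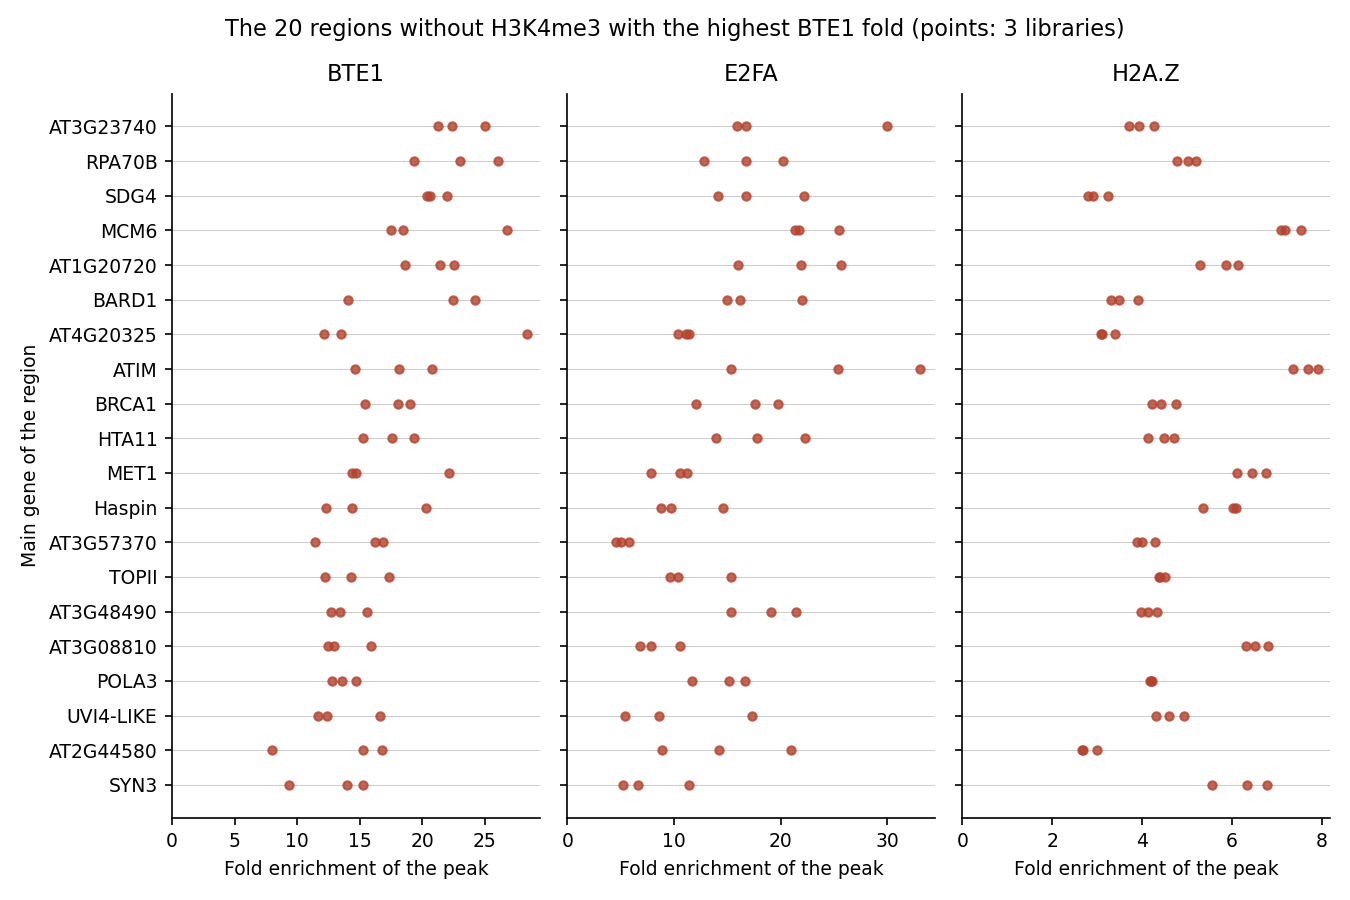
Fold enrichment of the BTE1, E2FA and H2A.Z peaks in the 3 libraries (points) for the 20 regions without H3K4me3 that had the highest mean BTE1 fold, named by main gene. All 20 had E2FA and H2A.Z peaks in every library, and the largest spread between libraries lay at AT4G20325 for BTE1.

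After these genes were seen, 2 further lists were drawn from gene names. Of 37 DNA replication genes (MCM, ORC, RPA, RFC, polymerase subunits and loading factors), 9 (24.3%) were the main gene of a region without H3K4me3, against 8.91% of all protein-coding genes. A region with H3K4me3 lay on 26 of them (70.3%, against 54.2% of all protein-coding genes). BTE1 and E2FA were each called at 8 of the 9 regions without H3K4me3, H2A.Z at 8 and WDR5A-HA at 0. Among all regions without H3K4me3, H2A.Z was called at 90.1% and WDR5A-HA at 9.09%, near these last 2 counts. On the 27 regions with H3K4me3 at genes of the list, BTE1 was called at 21, E2FA at 20, H2A.Z at 27 and WDR5A-HA at 2. BTE1 and E2FA were thus frequent on these genes in both groups, against 4.76% and 5.95% of all H3K4me2 regions.

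The 9 genes were ORC4, ORC2, MCM10, MCM3, MCM6, CDC45, RPA70B, RPA70D and POLA3. At CDC45, a helicase cofactor, BTE1 folds were 9.43, 15.4 and 13.0, and at ORC4, an origin recognition subunit, they were 5.03, 5.07 and 6.03. RPA70D was the exception, with no BTE1, E2FA or H2A.Z call and H3K4me3 elsewhere on the gene.

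Of 37 cyclin and cyclin-dependent kinase genes, 12 (32.4%) were the main gene of a region without H3K4me3, and 22 (59.5%) had a region with H3K4me3. Among all protein-coding genes these shares were 8.91% and 54.2%. All 12 regions had H2A.Z called, 4 had BTE1 and 3 had E2FA. Among all regions without H3K4me3 the shares were 90.1%, 7.11% and 7.99%, so the H2A.Z count was near its share. Of the 23 regions with H3K4me3 at genes of this list, 21 had H2A.Z, 6 had BTE1 and 7 had E2FA. Among all regions with H3K4me3 the shares were 92.7%, 4.34% and 5.58%. CDKB1;1, a kinase gene of mitotic entry, had BTE1 folds of 10.4, 9.82 and 5.18 and E2FA folds of 13.0, 9.08 and 7.86. CYCB1;1, a mitotic cyclin gene, had no BTE1 and no E2FA peak in any library, and its mean H2A.Z fold was 5.20. Both lists were chosen with their values known and stand as descriptions.

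The features on regions without H3K4me3 changed with the strength of H3K4me2. This split is a description, since H3K4me2 is one of the marks that chose the regions. When the 2828 regions were put in 4 equal classes by their H3K4me2 rank, BTE1 had a peak in 19.7% ± 2.62 of the strongest class and then in 11.3% ± 1.71, 4.95% ± 0.849 and 3.16% ± 0.216 (SD, n = 3 libraries each). E2FA stood at 21.1% ± 2.04 in the strongest class and 5.33% ± 0.698 in the weakest, and WDR5A-HA at means of 18.6% and 10.5%. The libraries of the strongest and the weakest class did not overlap for any of the 3.

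H3K4me1 ran the other way, at 4.62% ± 1.85 in the strongest class and 17.5% ± 1.98 in the weakest, and total Pol II stood at 6.46% ± 0.294 and 9.95% ± 0.909 (SD, n = 3 libraries each). H2A.Z had a peak in 99.4% ± 0.294 of the strongest class and 80.5% ± 1.10 of the weakest, with median folds of 4.05 and 2.87. The median width was 751 bp in the strongest class and 467 bp in the weakest, and its part in these shares was not tested. Weak H3K4me3 peaks of single libraries fell as well, from 8.02% ± 5.26 of the strongest class to 1.60% ± 0.993 of the weakest. Their part in these shares was not tested either.

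**Figure D4:**
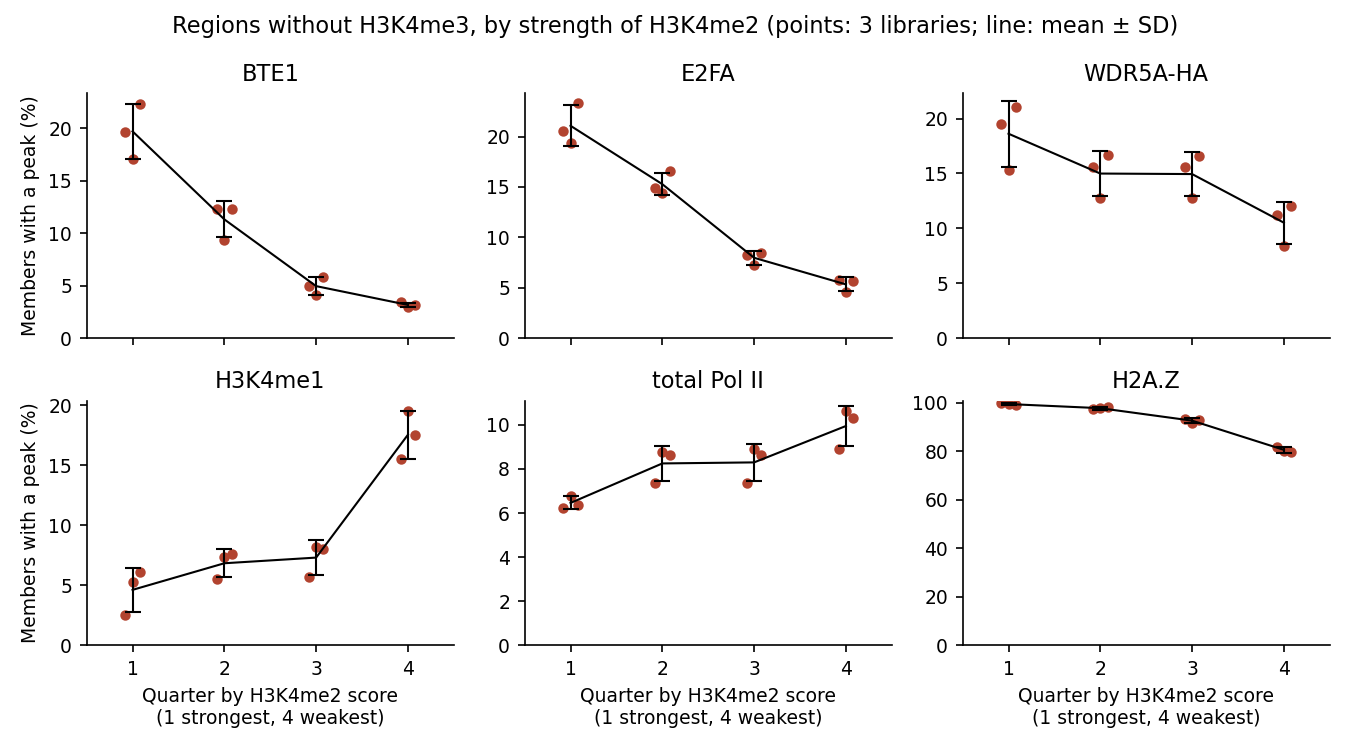
Percent of regions without H3K4me3 that had a peak of each feature, in 4 equal classes from the strongest to the weakest H3K4me2; points are the 3 libraries and lines join means ± SD. BTE1, E2FA, WDR5A-HA and H2A.Z fall with weaker H3K4me2, while H3K4me1 is highest in the weakest class, at 17.5%.

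Distance to H3K4me3 divided the regions as well, as a description, since the split uses the list that chose them. At gaps under 500 bp, 500 to under 2000 bp and 2000 bp or more, H3K4me1 had a peak at 19.5% ± 2.13, 9.81% ± 1.43 and 4.91% ± 1.40 of regions, and total Pol II at 12.6% ± 0.842, 12.1% ± 1.18 and 3.91% ± 0.369 (SD, n = 3 libraries each). WDR5A-HA stood at 25.4%, 15.3% and 10.7%. H2A.Z ran the other way, at 82.7%, 91.3% and 96.9%. BTE1 was near level, at 11.4%, 9.17% and 9.68%.

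A split by gene is likewise a description. Where the main gene had H3K4me3 elsewhere, H2A.Z had a peak at 68.0% ± 1.00 of regions, H3K4me1 at 32.0% ± 1.74 and Ser2P at 23.0% ± 1.33. Where the main gene had no H3K4me3, these shares were 96.8% ± 0.325, 5.24% ± 1.52 and 5.99% ± 0.662 (SD, n = 3 libraries each). The first kind of gene was longer, with a median of 3294 bp, against 1915 bp.

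The 10 regions with the best H3K4me2 rank had mean H3K4me2 folds of 4.97 to 6.58. They lay on AT3G27415, ICME-LIKE2, AT4G37420, EXO70C1, AT1G18280, 4CL5, AT4G01110, DREB1A, MAPKKK21 and AT1G21950. All 10 had H2A.Z called, near the 90.1% of all regions without H3K4me3. H3K4me2 folds were 7.14, 5.88 and 5.08 at AT3G27415 in the 3 libraries, 6.39, 4.80 and 6.70 at 4CL5, a ligase gene of the phenylpropanoid pathway, and 5.67, 6.15 and 5.99 at EXO70C1, an exocyst subunit gene. EXO70C1 had BTE1 and E2FA called, at BTE1 folds of 2.91, 3.79 and 3.16, and WDR5A-HA was called at AT4G01110 and DREB1A. Among all regions without H3K4me3, BTE1 was called at 7.11%, E2FA at 7.99% and WDR5A-HA at 9.09%.

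EXO70C1 was also the region crossed by H3K4me3 peaks of 2 single libraries, of 2.27-fold in library 1 and 2.58-fold in library 3. Total Pol II was called at none of the 10, and Ser5P at DREB1A alone. These counts were near the shares of all regions without H3K4me3, 6.22% and 5.09%.

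The widest regions lay on HA4, a proton pump gene, with 3407 bp, on LTI65, a gene induced by drought and cold, with 2306 bp, and on ATOBGM, AT1G15320 and AT3G44790 with 2027 to 2165 bp. H3K4me2 folds at HA4 were 2.19, 2.73 and 3.02, with H2A.Z at 2.00, 2.09 and 1.78, below the median H2A.Z fold of regions without H3K4me3 in every library. At AT3G44790 H2A.Z reached 6.09, 4.98 and 4.82.

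Gene lists drawn by symbol showed where the regions without H3K4me3 fell among gene families. A list holds only genes whose symbol names the family, so it may lack other members, and shares of short lists rest on few genes. The background was 8.91% of all protein-coding genes (9.3% when any overlap counted). The signalling and metabolic families above it were the cysteine-rich receptor-like kinases with 9 of 38 genes (23.7%), the cytochrome P450 genes with 37 of 234 (15.8%), the expansins, which loosen cell walls, with 5 of 33 (15.2%), and the receptor-like proteins with 7 of 52 (13.5%). Among auxin-response genes, SAUR genes had 11 of 80 (13.8%) and Aux/IAA genes 3 of 24 (12.5%). Peroxidase genes had 2 of 13 (15.4%), transporters of sugars and amino acids 8 of 80, and CLE and RALF peptide genes 3 of 64 (4.69%).

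Of the transcription factor families, NAC genes stood highest with 17 of 99 (17.2%), followed by ERF and DREB genes with 4 of 29 (13.8%), homeobox genes with 8 of 70 (11.4%), MADS-box genes with 11 of 97 (11.3%) and R2R3 MYB genes with 14 of 125 (11.2%). WRKY genes with 6 of 69 (8.70%) and bHLH genes with 1 of 13 (7.69%) were near the background.

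Ribosomal protein genes had 1 of 31 (3.23%), RPS15A, while 26 of them (83.9%) had a region with H3K4me3. Light-harvesting and Rubisco genes, a short list, had 0 of 20. MicroRNA genes had 0 of 268, or 1 when any overlap counted. They are not protein-coding, so the background above is not theirs, and 12 of them (4.48%) had a region with H3K4me3. Seed storage and oil body genes had 2 of 19 (10.5%), the storage globulin gene CRA1 and the embryo regulator LEC1.

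**Figure D5:**
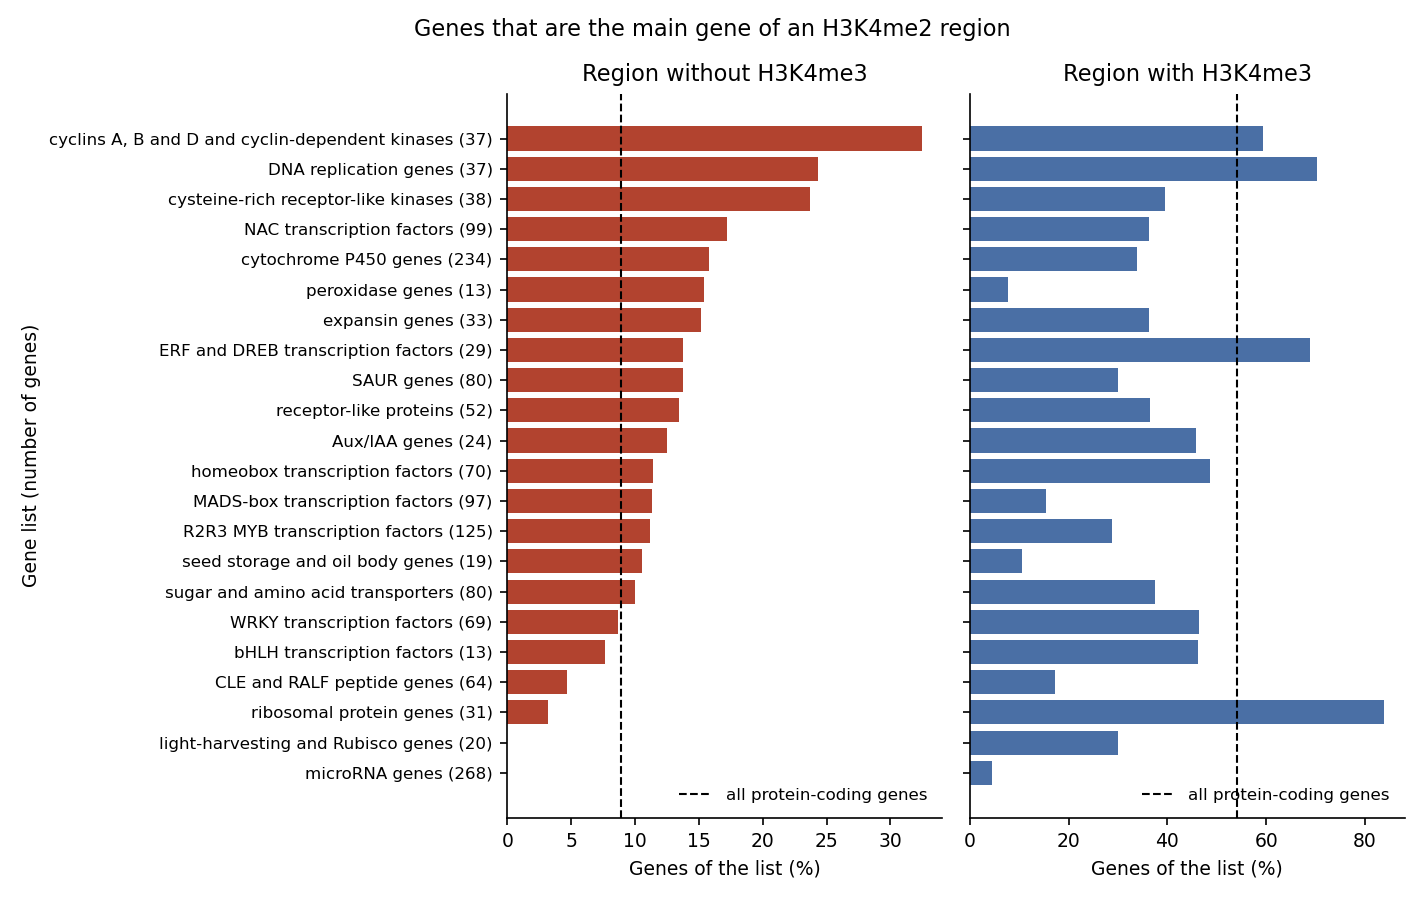
Percent of the genes in each list that were the main gene of a region without H3K4me3 (left, red) or with H3K4me3 (right, blue), ordered by the left panel; dashed lines mark all protein-coding genes, at 8.91% and 54.2%, and numbers in brackets are genes per list. Cyclin and kinase, DNA replication and cysteine-rich receptor-like kinase genes stand highest on the left, and ribosomal protein genes highest on the right.

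AGL15, a MADS-box gene of embryo and floral control, had H2A.Z folds of 2.73, 3.19 and 2.89 and WDR5A-HA folds of 2.33, 2.39 and 2.68. MAF4 and AGL8, other MADS-box genes of the floral transition and fruit, had H2A.Z called and no WDR5A-HA peak. LEC1 had H2A.Z folds of 4.45, 3.74 and 4.30 and no Pol II or WDR5A-HA peak.

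BHLH101, a regulator of iron uptake, had total Pol II folds of 4.92, 6.29 and 4.79 and WDR5A-HA folds of 3.37, 3.42 and 3.84, with a gap of 4458 bp to H3K4me3. MYB57 had total Pol II folds of 3.44, 3.61 and 2.14 with H2A.Z in libraries 2 and 3 only.

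CYP81G1, a cytochrome P450 gene, had total Pol II folds of 12.5, 11.1 and 12.9 and lay 55 bp from H3K4me3, and EXPA6 had Ser2P folds of 6.89, 6.97 and 9.61 at a gap of 218 bp. TT7, the P450 gene of flavonoid hydroxylation, had H3K4me2 folds of 6.25, 4.73 and 5.09 and no total Pol II peak. NAC044, known from the DNA damage response, had BTE1 folds of 8.98, 4.16 and 10.9 and E2FA folds of 11.1, 4.62 and 15.8.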

How the data were processed

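The submitters' processing notes name fastp, Bowtie2 2.3.3, the TAIR10 build, MACS2 2.2.5 and deepTools. Which control the peaks were called against is not stated there. The library lists deposited by the authors give for each peak its position, a score, a fold enrichment (a ratio over background), −log10 p and −log10 q. Checked on the files, the deposited peaks keep to a q threshold of 0.05 (E2FA to a p threshold of 0.01), and the deposited score is 10 times −log10 q (−log10 p for E2FA). The deposited series-level lists hold positions only. TBP has 1 list, known from its name alone.

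From these, regions were intersected (at least 1 bp), and shares, median folds and exact permutation tests were computed in Python 3.11.15 with numpy 2.4.6 and pandas 2.3.3. Overlap, gap and test code was tested on simulated data. Gene bounds came from the RefSeq table of TAIR10.1, which gives no strand and is not printed.

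Regions were named as the 10 best by H3K4me2 rank, the 5 widest, the 3 highest by fold for each of 8 features, 3 on each side of the rule and up to 4 genes per list, and the lists numbered 20. Genes whose symbols match a list but that belong to another family were taken out, the last of them after the lists' counts were seen. The members, lists and tests were chosen with earlier results of these data known. Further BTE1 regions and 2 gene lists were added after seeing the data. The number of the replicate pairs the values by construction, since both groups of regions are read in the same library. Alternatives were other definitions of a region, a peak and width, leaving out each library, and that block. Mutant, input, control, H3K27me3 and other libraries of the series were not analysed here.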

Additional observations from a re-analysis of the deposited data

How the results depend on the processing

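Sequencing depth per library was unknown, and 3 libraries per feature cannot give a p below 0.1, so no call could be gained or lost. The share difference of H2A.Z, -1.73 percentage points without against with H3K4me3, reversed under most settings. It was 0.244 with no H3K4me3 within 500 bp, 2.60 with none within 2000 bp, 0.638 for regions with H3K4me2 in all 3 libraries, 0.0671 for H3K4me2 peaks in the upper 50% by score, 30.8 when the peak had to cover 50% of the region, 6.60 with the peak summit in the region, 1.07 over 4 width classes and 27.6 as share of bases. It kept its sign at -2.19 without regions crossed by an H3K4me3 peak of a single library and at -27.2 for the upper 50% of H2A.Z peaks by score. The E2FA share difference, 0.611, became -0.131 without regions crossed by any H3K4me3 peak of a single library. Fold differences reversed for total Pol II (0.197 to -0.156) and Ser5P (0.246 to -0.0527) with the summit in the region, and for Ser2P (-0.116 to 0.0418) with H3K4me2 in all 3 libraries. The cause was not tested. The other 103 share and 53 fold values kept their direction. These counts include values paired by library, which equal the main differences by arithmetic. Other values changed in size. With 50% of the region covered, the summit in the region and share of bases in turn, H3K4me1 (-49.8) became -11.5, -23.0 and -20.0, WDR5A-HA (-47.1) became -11.1, -23.8 and -19.0, total Pol II (-27.3) became -18.0, -12.8 and -20.0, Ser5P (-22.1) became -10.8, -8.09 and -12.6, and Ser2P (-19.6) became -12.2, -7.67 and -13.5. BTE1 (2.55) ran between 1.37 with the summit in the region and 6.33 for H3K4me2 in the upper 50% by score, and E2FA (0.611) reached 4.21 there. The Ser2P fold difference was -0.177 with no H3K4me3 within 500 bp and -0.0144 with the summit in the region. The number of regions without H3K4me3 became 1364 at a distance of 2000 bp and 1126 for H3K4me2 peaks in the upper 50% by score.

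Pairing the values by library (replicate block, exact sign-flip test, smallest p 0.25) left each difference as it was, for example -49.8 for H3K4me1 and -47.1 for WDR5A-HA, with p = 0.25 for both, and changed no call. Leaving out each library in turn gave H2A.Z share differences of -1.81 to -1.60, BTE1 of 2.41 to 2.71 and E2FA of 0.364 to 1.04.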
